A study of Rattus norvegicus with 6 samples.

Results

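The cadherins and protocadherins, adhesion proteins of the cell surface, were examined across the cell classes of the nucleus accumbens, a region of the ventral striatum, in rats. Members were all genes whose symbol is Cdh or Pcdh followed by a digit, or begins with Pcdha, Pcdhb or Pcdhg. The rule found 55 of the 25629 genes in the count matrices. They are 5 type I classical cadherins, 13 type II classical cadherins, 5 other cadherins, 5 delta-1, 5 delta-2 and 3 other unclustered protocadherins, and 19 clustered protocadherins. Pcdh7 is listed under 2 gene identifiers, so the 55 members carry 54 symbols.

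Single-nucleus RNA sequencing was performed on adult Sprague-Dawley rats aged between postnatal days 90 and 120. All of the animals, controls included, had self-administered heroin, for 7 days at 1 response per infusion, for 4 days at 3 responses, in a progressive ratio session on day 12 and again at 3 responses until day 14. They then received saline or naloxone, an antagonist of opioid receptors, and the tissue was taken after 1 h. Each of the 6 libraries pools males and females out of 12 rats, and the libraries are called saline replicates 1 to 3 and naloxone replicates 4 to 6. Rats without heroin were not analysed here, so both groups share the heroin history.

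Classical cadherins join the membranes of neighbouring cells through calcium-dependent binding of their outer domains, and their tails hold the actin cytoskeleton through catenins. Type I members favour binding to themselves, while type II members also bind selected partners of their own type. Unclustered protocadherins of the delta groups bind more weakly and signal through their tails. The clustered protocadherins are chosen from arrays of alternative first exons, and the mixture on a neuron's surface allows its own branches to be told from those of other cells. In the striatum such proteins are best known from the wiring and synapses of spiny projection neurons.

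The libraries held 55739350 to 76272798 unique molecular identifiers (UMIs, counted transcripts) in 8094 to 15020 barcodes. Any pair of libraries shared 19 to 45 barcode sequences. After filters and removal of called doublets, 58847 nuclei were used, with a median of 4241 to 6494 UMIs per nucleus in a library. Clusters were named from marker genes, with every cadherin and protocadherin gene kept out of the clustering, and 25 of 53 clusters (45139 nuclei) fell into 17 classes. Each label is a statement about markers, such as Drd2 at 571 ± 27.6 CPM (SD, n = 6 libraries; CPM is defined in the next paragraph) in the Drd2-like class against 8.71 ± 1.57 in the Drd1-like class. Spiny neurons formed 5 classes, named by Drd1, Drd2, Chst9, Drd3 or the markers of eccentric spiny neurons. Interneurons formed cholinergic-like, Sst-like and Pthlh-like classes, and a further GABA class was marked by Bnc2. Glia comprised astrocyte-like, oligodendrocyte-like, oligodendrocyte precursor-like and committed precursor-like nuclei (between precursor and oligodendrocyte). A low-depth cluster of 1569 nuclei led by Ikzf1 carried 7 of 7 microglial markers but is called by that gene. Classes of endothelial-like, mural-like (pericytes and vascular muscle) and ependymal-like nuclei were small, and the mural-like and ependymal-like ones had under 20 nuclei in some libraries.

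Levels are counts per 1000000 (CPM), the UMIs of a gene for each 1000000 UMIs of the class, as the mean ± SD of all 6 libraries. They are not corrected for gene length, so they compare classes for 1 gene and not genes with each other. Of the 55 members, 36 reached 10 CPM in at least 1 class and 16 reached it in every class. The other 19 stayed below 10 CPM in all 17 classes. Of these, 14 were Pcdhb genes, joined by Pcdhga1, Cdh1, Cdh16, Cdh17 and Cdh26. Cdh16, the kidney cadherin, had 0 UMIs, and Cdh17 and Pcdhb1 stayed below 1 CPM in every class. For 16 members the highest class stood clear, meaning that its lowest library was above the highest library of the next class. No share over all genes is given for this count, so it cannot be called high or low for the members. The members at 10 CPM or more numbered 21 to 28 per class, but those at 100 CPM or more ranged from 4 in the Ikzf1-led cluster and 8 in oligodendrocyte-like and ependymal-like nuclei to 19 in Chst9-like and Bnc2-like neurons. The 28 were in the small endothelial-like and mural-like classes, where few UMIs pass 10 CPM. In mural-like nuclei Cdh15 passed at 13.8 ± 26.5 CPM on 3 UMIs. The counts at 10 CPM include such values.

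**Figure D1:**
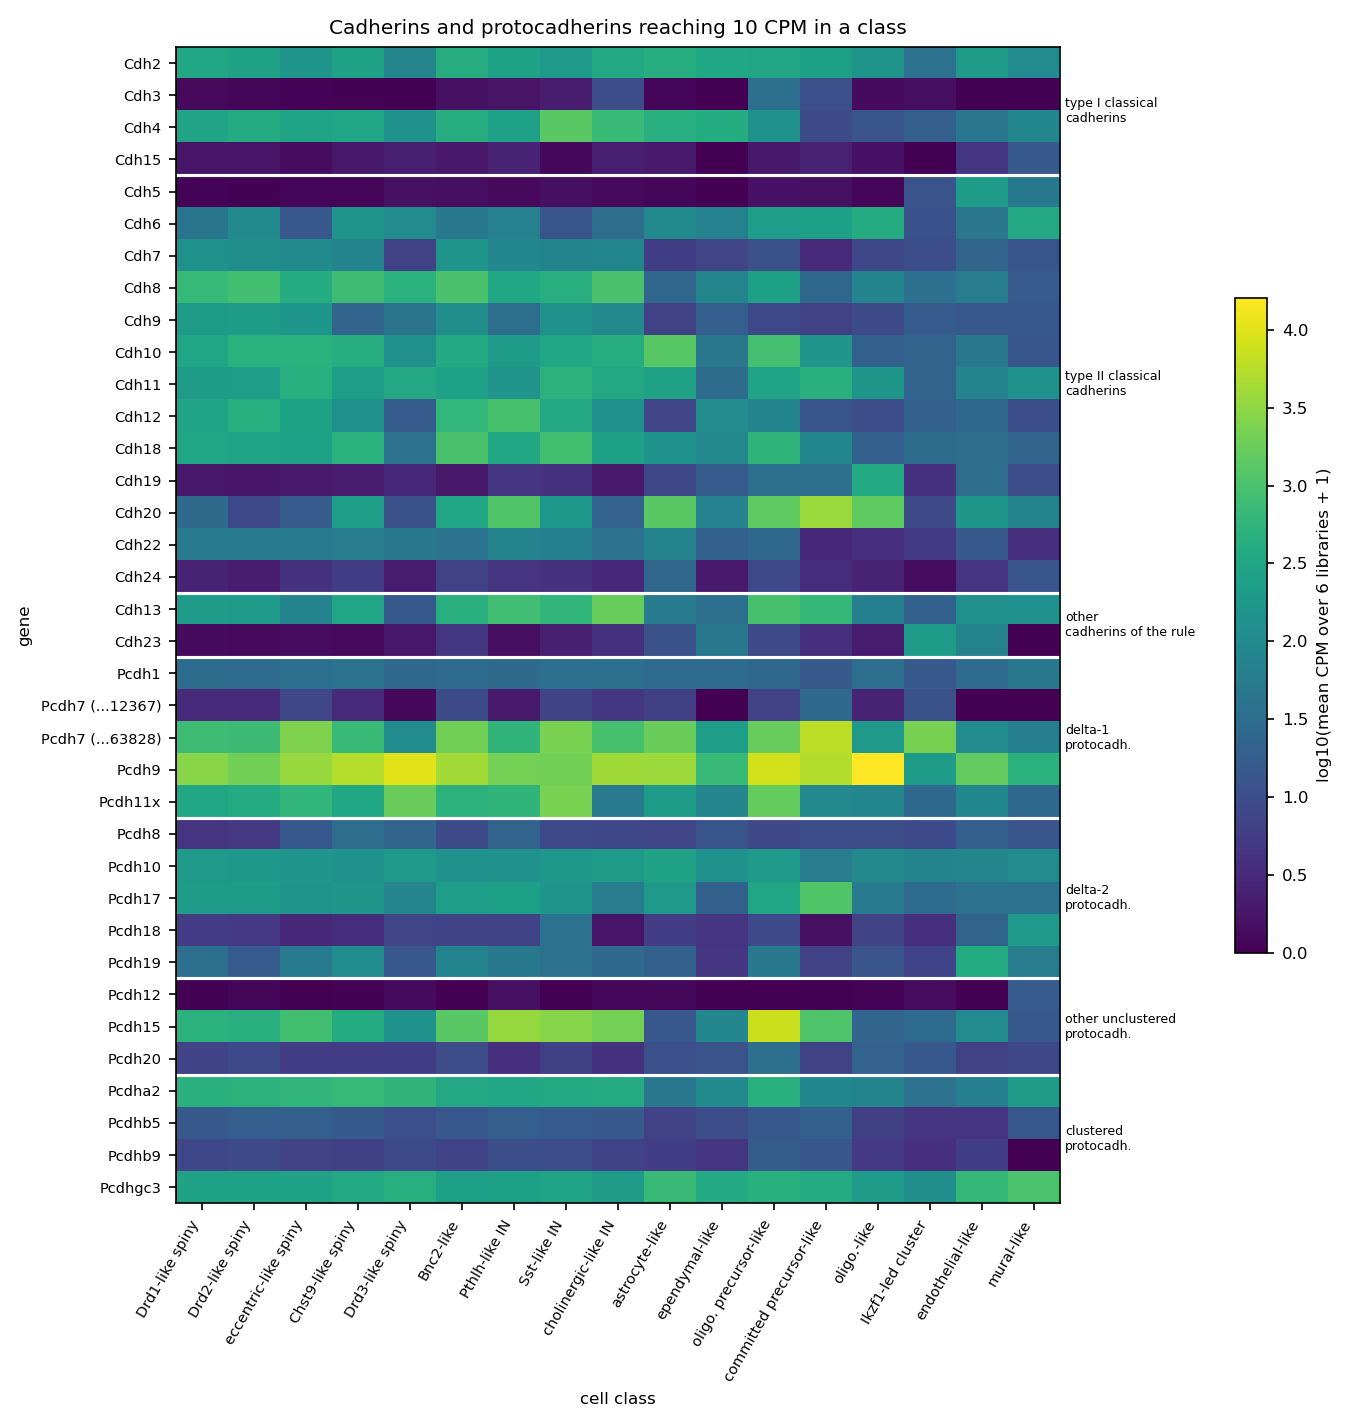
Level of each of the 36 members that reached 10 CPM in a class (rows, grouped by family with white lines) in the 17 classes (columns), coloured by log10 of the mean CPM over 6 libraries plus 1. Cdh3, Cdh5, Cdh19 and Cdh23 are dark in most neuronal columns, while Cdh2, Cdh11, Pcdh9, Pcdh10 and Pcdhgc3 are filled in nearly every column.

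Among the type I classical cadherins, Cdh2 (N-cadherin, of synaptic and glial junctions) was found in every class, with 424 ± 36.3 CPM in Bnc2-like neurons and 424 ± 51.9 CPM in astrocyte-like nuclei. Its level was 329 ± 18.3 CPM in Drd1-like and 82.2 ± 17.3 CPM in Drd3-like spiny neurons, and lowest in the Ikzf1-led cluster at 35.6 ± 14.3 CPM. Cdh4 (R-cadherin) was highest in Sst-like interneurons, at 1171, 1288 and 1651 CPM in the lowest, median and highest library. Cholinergic-like interneurons followed at 684 ± 144 CPM, so that no library of theirs (522 to 878 CPM) reached the Sst-like ones. Astrocyte-like and Bnc2-like nuclei had similar Cdh4 levels, 436 ± 47.1 and 424 ± 40.4 CPM, and the ranges overlapped. Committed precursor-like nuclei had the least Cdh4, 8.19 ± 3.26 CPM.

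Cdh3 (P-cadherin) was almost limited to the oligodendrocyte precursor-like class, where it had 24.8, 32.6 and 48.2 CPM in the lowest, median and highest library. The next classes, committed precursor-like and cholinergic-like, had 9.55 ± 10.3 and 9.04 ± 8.25 CPM, and single libraries of theirs overlapped the precursors. The level was below 2 CPM in each of the other 14 classes. Cdh15 (M-cadherin, known from muscle) passed 10 CPM only in mural-like nuclei, where the mean of 13.8 ± 26.5 CPM came from libraries spread between 0 and 66.1 CPM. Cdh1 (E-cadherin, of epithelia) was at most 1.34 ± 0.57 CPM, in oligodendrocyte-like nuclei.

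All 13 type II cadherins reached 10 CPM in some class, and 3 of them on chromosome 13 had clearly different homes. Cdh7 and Cdh19 are next to each other with 0 protein-coding genes in between, and Cdh20 lies 25 protein-coding genes away (gene order from RefSeq, assembly GRCr8). Cdh7 was a neuronal gene in these libraries. It had 148 ± 30.6 CPM in Bnc2-like neurons, 142 ± 15.5 CPM in Drd1-like and 125 ± 11.4 CPM in Drd2-like spiny neurons, whose libraries overlapped. It was below 10 CPM in astrocyte-like, oligodendrocyte-like, precursor-like and Ikzf1-led nuclei, and also in Drd3-like spiny neurons at 5.75 ± 2.88 CPM.

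Its neighbour Cdh19 was an oligodendrocyte gene. The oligodendrocyte-like class had 337, 369 and 413 CPM in the lowest, median and highest library, and the precursor-like class followed at 33.9 ± 6.04 CPM. No library of another class came above 115 CPM. Each neuronal class had a mean below 4 CPM, and Drd2-like spiny neurons had 0.81 ± 0.42 CPM. A UMI of Cdh19 was seen in 41.5 ± 6.4% of oligodendrocyte-like nuclei against 0.795 ± 0.404% of Drd1-like nuclei. The median depths were 1624 and 9007 UMIs. Whether free RNA in the droplets contributed to the Drd1-like share was not tested.

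Cdh20 was broader. Committed precursor-like nuclei had 3336, 3648 and 4710 CPM in the lowest, median and highest library. Oligodendrocyte-like (1441 ± 220 CPM), precursor-like (1440 ± 159 CPM), astrocyte-like (1357 ± 176 CPM) and Pthlh-like nuclei (1156 ± 100 CPM) came next, and the first 3 of these overlapped. Bnc2-like and Chst9-like neurons had 291 ± 28.0 and 226 ± 31.8 CPM, while Drd1-like and Drd2-like spiny neurons had 27.5 ± 6.01 and 7.62 ± 2.23 CPM.

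The start-proximal sequences of the 3 genes are shown because the genes share a chromosome and a protein family but not a class. Each is the 250 bases before the RefSeq gene start, 5′ to 3′ on the gene's strand, in assembly GRCr8 and not in the build of the counts: chr13:27197332-27197581 (plus) for Cdh7, chr13:28533754-28534003 (minus) for Cdh19 and chr13:21515017-21515266 (plus) for Cdh20. Capitals mark matches to CANNTG, the E-box core bound by basic helix-loop-helix factors such as Olig2.
Cdh7: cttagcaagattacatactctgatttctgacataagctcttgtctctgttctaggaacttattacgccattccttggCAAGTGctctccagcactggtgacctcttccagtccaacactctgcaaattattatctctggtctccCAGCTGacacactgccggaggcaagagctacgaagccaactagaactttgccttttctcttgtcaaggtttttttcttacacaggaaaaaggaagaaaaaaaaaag
Cdh19: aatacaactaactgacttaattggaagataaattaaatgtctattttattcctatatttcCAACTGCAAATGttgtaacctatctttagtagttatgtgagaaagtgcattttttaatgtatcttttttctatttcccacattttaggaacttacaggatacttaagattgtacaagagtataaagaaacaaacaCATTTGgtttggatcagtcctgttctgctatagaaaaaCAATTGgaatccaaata
Cdh20: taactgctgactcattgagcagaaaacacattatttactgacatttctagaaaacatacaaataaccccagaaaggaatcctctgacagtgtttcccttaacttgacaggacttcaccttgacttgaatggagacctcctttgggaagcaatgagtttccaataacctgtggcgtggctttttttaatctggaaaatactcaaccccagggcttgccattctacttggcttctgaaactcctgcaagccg

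The Cdh19 window held 4 E-box cores, the Cdh7 window 2 and the Cdh20 window 0. The core of Sox factors, ACAAT on either strand, had 2 matches in the Cdh19 window, of which 1 overlapped an E-box, and 0 in each of the other windows. In the table of 33469 RefSeq rat promoters, 65.5% of windows of this length held an E-box core and 30% held ACAAT, so matches are common and describe these letters only. The Cdh19 window was rich in A and T, with 28.4% G and C, against 42.8% for Cdh7, 42.4% for Cdh20 and a median of 51.2% over all promoters. RefSeq promoters were matched for 41 of the 55 members. The motifs were chosen after the sequences were seen.

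A second run of type II genes lies on chromosome 2 in the order Cdh6, Cdh9, Cdh10, Cdh12 and Cdh18, with 2, 2, 0 and 0 protein-coding genes in the gaps. These neighbours also differed in class. Cdh6 (K-cadherin) was highest in oligodendrocyte-like nuclei at 407 ± 30.8 CPM, and within spiny neurons it ran from 147 ± 17.7 CPM in the Chst9-like class to 12.7 ± 2.54 CPM in the eccentric-like class. Cdh9, known from hippocampal mossy fibre synapses, was highest in Drd2-like (159, 203 and 240 CPM in the lowest, median and highest library), Drd1-like (159, 193 and 244 CPM) and eccentric-like spiny neurons (161 ± 48.3 CPM). Those 3 classes overlapped, and Sst-like interneurons (145 ± 18.9 CPM) overlapped each of them. Bnc2-like neurons had 118 ± 14.3 CPM. Chst9-like spiny neurons had 22.2 ± 4.01 CPM of Cdh9 and Drd3-like ones 40.1 ± 15.9 CPM, and every glial class had below 20 CPM.

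Cdh10 was led by astrocyte-like nuclei, with 1244, 1316 and 1391 CPM in the lowest, median and highest library, followed by precursor-like nuclei at 894 ± 85.4 CPM. Oligodendrocyte-like nuclei had 19.4 ± 6.63 CPM. Cdh12 was highest in Pthlh-like interneurons at 973 ± 134 CPM, then Bnc2-like at 607 ± 93.4 CPM and Drd2-like neurons at 450 ± 59.7 CPM. Chst9-like and Drd3-like spiny neurons had less, 128 ± 19.2 and 15.5 ± 8.38 CPM, and astrocyte-like nuclei had 6.45 ± 4.05 CPM. Cdh18 was led by Bnc2-like neurons (990 ± 50.7 CPM) and Sst-like interneurons (843 ± 96.0 CPM), whose libraries overlapped, and Drd3-like spiny neurons again had little, 38.1 ± 11.2 CPM.

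Of the remaining type II genes, Cdh8 was mainly neuronal, with 1003 ± 189 CPM in cholinergic-like, 984 ± 33.6 CPM in Bnc2-like and 857 ± 35.3 CPM in Drd2-like neurons against 23.4 ± 6.98 CPM in astrocyte-like nuclei. Cdh11 was at 506 ± 50.7 CPM in Sst-like and 427 ± 50 CPM in eccentric-like neurons and above 100 CPM in 14 of the 17 classes. Cdh5 (VE-cadherin of endothelial junctions) had 134, 208 and 267 CPM in the lowest, median and highest endothelial-like library. It had 49.8 ± 52.1 CPM in mural-like and 11.1 ± 8.78 CPM in Ikzf1-led nuclei, and below 1 CPM elsewhere. Cdh22 was at 76.1 ± 15.1 CPM in astrocyte-like and 73.9 ± 11.4 CPM in Pthlh-like nuclei, and Cdh24 at 23.8 ± 3.07 CPM in astrocyte-like nuclei.

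Cdh13 (T-cadherin, held by a lipid anchor and without a cytoplasmic tail) separated interneurons and precursors from most spiny neurons. Cholinergic-like interneurons had 1393, 1727 and 1986 CPM in the lowest, median and highest library. Precursor-like and Pthlh-like nuclei came next at 969 ± 65.2 and 812 ± 95.1 CPM, and all of their libraries were below the cholinergic-like ones. Spiny classes ran from 294 ± 23.9 CPM (Chst9-like) through 199 ± 22.8 (Drd1-like) and 180 ± 25.8 (Drd2-like) to 78.8 ± 27 (eccentric-like) and 13.1 ± 5.16 CPM (Drd3-like). Cdh23, which forms the tip links of inner-ear hair cells with Pcdh15, was at 213 ± 34.4 CPM in the Ikzf1-led cluster and below 4 CPM in every neuronal class. Endothelial-like and ependymal-like nuclei had 75.2 ± 54.2 and 49.0 ± 25.9 CPM of Cdh23. The highest endothelial-like library (170 CPM) was above the lowest Ikzf1-led one (158 CPM). The partner Pcdh15 had a different pattern, with 28.4 ± 14.6 CPM in the Ikzf1-led cluster.

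Pcdh15 was the precursor gene of the set. Oligodendrocyte precursor-like nuclei had 6926, 7329 and 7648 CPM in the lowest, median and highest library, and 99.9 ± 0.19% of them held a UMI. Pthlh-like (3419 ± 392 CPM), Sst-like (2766 ± 171 CPM) and cholinergic-like interneurons (2151 ± 286 CPM) followed, all well below the precursors. Spiny classes had 861 ± 173 (eccentric-like), 483 ± 39.4 (Drd1-like), 451 ± 74.1 (Drd2-like), 380 ± 25.2 (Chst9-like) and 142 ± 51.1 CPM (Drd3-like). Oligodendrocyte-like and astrocyte-like nuclei had 22.1 ± 4.18 and 12.8 ± 2.20 CPM, in 2.99 ± 0.56% and 3.01 ± 0.67% of nuclei, at median depths of 1624 and 2351 UMIs against 3138 in the precursors.

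Delta-1 protocadherins were the most widely shared group, with 4 of its 5 entries at 10 CPM or more in every class. Pcdh9 had 14886, 15759 and 18105 CPM in the lowest, median and highest oligodendrocyte-like library. Drd3-like spiny neurons followed at 10287 ± 667 CPM and precursor-like nuclei at 8296 ± 520 CPM. Chst9-like, eccentric-like, Drd1-like and Drd2-like spiny neurons had 5456 ± 279, 3588 ± 307, 2857 ± 346 and 2054 ± 88.5 CPM, and the Ikzf1-led cluster had 205 ± 90.8 CPM. Pcdh7 under its main identifier (ENSRNOG00000063828) was highest in committed precursor-like nuclei at 6216 ± 610 CPM. Eccentric-like spiny neurons (2506 ± 82.9 CPM), Sst-like interneurons (2289 ± 175 CPM) and the Ikzf1-led cluster (2208 ± 207 CPM) came next. The Sst-like libraries overlapped those of both others, while all Ikzf1-led libraries were below all eccentric-like ones. Oligodendrocyte-like nuclei had 188 ± 47.9 and Drd3-like spiny neurons 112 ± 42.9 CPM. The entry ENSRNOG00000012367 for the same symbol reached at most 26.6 ± 13.8 CPM, also in committed precursor-like nuclei.

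Pcdh11x, which is X-linked, was at 2022, 2210 and 2593 CPM in the lowest, median and highest Sst-like library. Drd3-like spiny neurons and precursor-like nuclei followed with 1741 ± 107 and 1634 ± 168 CPM, overlapping each other but not the Sst-like class. The other spiny classes had 318 to 588 CPM on average, and cholinergic-like interneurons had 52.6 ± 32.8 CPM. Pcdh1 was low and even, from 14.0 ± 6.39 CPM in the Ikzf1-led cluster to 38.3 ± 5.03 CPM in Chst9-like neurons among classes with at least 20 nuclei in each library.

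In the delta-2 group Pcdh17, known from presynaptic sites of corticobasal circuits, was at 1179 ± 225 CPM in committed precursor-like nuclei and at 296 ± 9.25 CPM in precursor-like nuclei. Its spiny levels were 208 ± 11.1 (Drd1-like), 214 ± 22.5 (Drd2-like) and 80.2 ± 5 CPM (Drd3-like). Pcdh10, known from the growth of striatal axons, ran from 260 ± 27.4 CPM in astrocyte-like to 56.6 ± 25.8 CPM in committed precursor-like nuclei, which did not overlap. Pcdh19, an epilepsy gene, was highest in endothelial-like nuclei at 386 ± 73.0 CPM, and Chst9-like spiny neurons led the neurons at 108 ± 15.6 CPM. Pcdh8, whose product takes N-cadherin off the synaptic membrane after activity, was low. It reached 24.6, 29.8 and 38.8 CPM in the lowest, median and highest Chst9-like library. Drd3-like spiny neurons (22.9 ± 2.58 CPM) and Pthlh-like interneurons (21.0 ± 4.96 CPM) overlapped the Chst9-like libraries. Drd1-like and Drd2-like spiny neurons had 3.46 ± 0.62 and 4.03 ± 0.66 CPM of Pcdh8. Pcdh18 was led by mural-like nuclei, with 180 ± 86.9 CPM from 40 UMIs, and Sst-like interneurons had 37.8 ± 13.8 CPM. Other unclustered genes were low, with Pcdh20 at 34.2 ± 5.25 CPM in precursor-like nuclei and Pcdh12, known from endothelia, resting on 3 UMIs in mural-like nuclei.

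Of the 19 clustered genes, 4 reached 10 CPM. Pcdha2 was at 653 ± 26.9 CPM in Chst9-like spiny neurons and between 458 and 584 CPM on average in the other spiny classes, against 47.2 ± 14.1 CPM in astrocyte-like and 78.3 ± 6.45 CPM in oligodendrocyte-like nuclei. Pcdhgc3 was highest in the small mural-like class at 1050 ± 191 CPM, from 243 UMIs, with libraries from 819 to 1289 CPM. Astrocyte-like nuclei had 628, 687 and 730 CPM in the lowest, median and highest library, and endothelial-like nuclei had 621 ± 82.8 CPM. These levels were above the 267 ± 5.40 CPM of Drd1-like neurons. Oligodendrocyte-like nuclei (199 ± 11.6 CPM) and the Ikzf1-led cluster (125 ± 31.8 CPM) were below the Drd1-like neurons. The alpha and gamma arrays join different first exons to shared last exons, and 3' counting reads the end of a transcript, so UMIs listed under Pcdha2 or Pcdhgc3 cannot be told apart from those of other members of their array. Pcdhb5 and Pcdhb9, which have their own single exons, were highest at 18.7 ± 17.7 CPM in committed precursor-like and 16.6 ± 3.45 CPM in precursor-like nuclei. Summed over the 19 genes, the small mural-like class had the most, 1294 ± 274 CPM. Chst9-like and Drd3-like spiny neurons had 1052 ± 31.3 and 1044 ± 31.8 CPM, and precursor-like nuclei overlapped both at 985 ± 48.9 CPM. Drd1-like neurons had 763 ± 14.5 CPM and oligodendrocyte-like nuclei 297 ± 18.7 CPM.

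The spiny classes were then compared in pairs within libraries. A member was called when the adjusted p of edgeR's quasi-likelihood test, with library as a block and Benjamini-Hochberg adjustment over all genes, was under 0.05 and the log2 difference was at least 1 in size. Drd1-like and Drd2-like neurons were close, with 3 of 37 tested members called (8.11%), where 2.8% of all tested genes were. Higher in the Drd1-like class were 2 of them (1.77% of all genes), Cdh20 and Pcdh19. Cdh20 was at 27.5 ± 6.01 against 7.62 ± 2.23 CPM (log2 difference 1.84 ± 0.09 SE, adjusted p = 6.03e-12). Pcdh19 was at 34.0 ± 5.41 against 15.6 ± 2.11 CPM (1.09 ± 0.07, adjusted p = 1.85e-10). Lower was 1 member (1.03% of all genes), Cdh6, at 41.7 ± 6.77 against 98.9 ± 19.2 CPM (-1.27 ± 0.06, adjusted p = 1.39e-11). For each of the 3 genes the 6 libraries of the classes did not overlap, which adds no support because the genes were picked by p and size. Differences below the required size also passed for some members, such as Cdh10 (-0.73 ± 0.03) and Cdh12 (-0.66 ± 0.03), both lower in Drd1-like neurons in 6 of 6 libraries. The median size of the log2 difference was 0.19 for members and 0.10 for all genes.

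Chst9-like neurons stood further from the Drd1-like class, with 8 of 34 tested members called (23.5%) against 12.3% of all genes. The 5 called higher compare with 5.37% of all genes called higher, and the 3 called lower with 6.88%. Pcdh8 was higher by 2.99 ± 0.12 on the log2 scale, Cdh20 by 2.87 ± 0.10 and Cdh6 by 1.67 ± 0.08 (edgeR adjusted p = 1.73e-15, 3.78e-16 and 6.93e-14), each in 6 of 6 libraries. Pcdh19 and Cdh24 were higher too. Cdh9 was lower by 3.30 on the log2 scale (22.2 ± 4.01 against 199 ± 28.9 CPM, log2 difference -3.30 ± 0.08, adjusted p = 9.56e-20) and Cdh12 by 1.32 (128 ± 19.2 against 287 ± 25.3 CPM, -1.32 ± 0.05, adjusted p = 1.04e-15). Pcdh18 was called lower at 2.53 ± 1.20 against 4.64 ± 1.03 CPM, with overlapping libraries, and lost that call without replicate 1, 2 or 6. Of the 11 type II cadherins tested, 3 were higher and 2 lower, and of the 5 delta-2 protocadherins 2 were higher and 1 lower.

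Eccentric-like neurons also had 8 members called against the Drd1-like class, of 35 tested (22.9%), with 8.3% of all genes called. The 4 called higher compare with 3.23% of all genes called higher, and the 4 called lower with 5.07%. Pcdh7 was higher under both identifiers, at 2506 ± 82.9 against 794 ± 51.6 CPM for the main one (log2 difference 1.61 ± 0.04, adjusted p = 1.80e-25 by edgeR) and by 1.56 ± 0.19 for the other. Pcdh8 was higher by 1.87 ± 0.17 on the log2 scale (13.3 ± 4.43 against 3.46 ± 0.62 CPM). Pcdhb20 was called higher at 2.82 against 1.29 CPM, with overlapping libraries. Cdh6 was lower (log2 difference -1.76 ± 0.10), as were Cdh13 (-1.38 ± 0.08), Pcdh18 (-1.28 ± 0.26) and Cdh2 (-1.13 ± 0.04). The Pcdh18 libraries overlapped, at 2.07 against 4.64 CPM on average. Relative to Drd1-like neurons, Pcdh8 was thus called higher in both the Chst9-like and the eccentric-like class, and Cdh6 was called in opposite directions. Those comparisons share the Drd1-like nuclei. The median size of the log2 difference was 0.54 for members and 0.18 for all genes against eccentric-like neurons, and 0.45 and 0.25 against Chst9-like ones. With nuclei assigned by their own marker UMIs in place of clusters, 1 of 28 members was called in the Drd2-like comparison (1.89% of all genes), 4 of 27 in the Chst9-like (8.25%) and 5 of 28 in the eccentric-like one (4.96%), and Cdh20 between Drd1-like and Drd2-like nuclei fell to a log2 difference of 0.36 (edgeR adjusted p = 0.124).

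**Figure D2:**
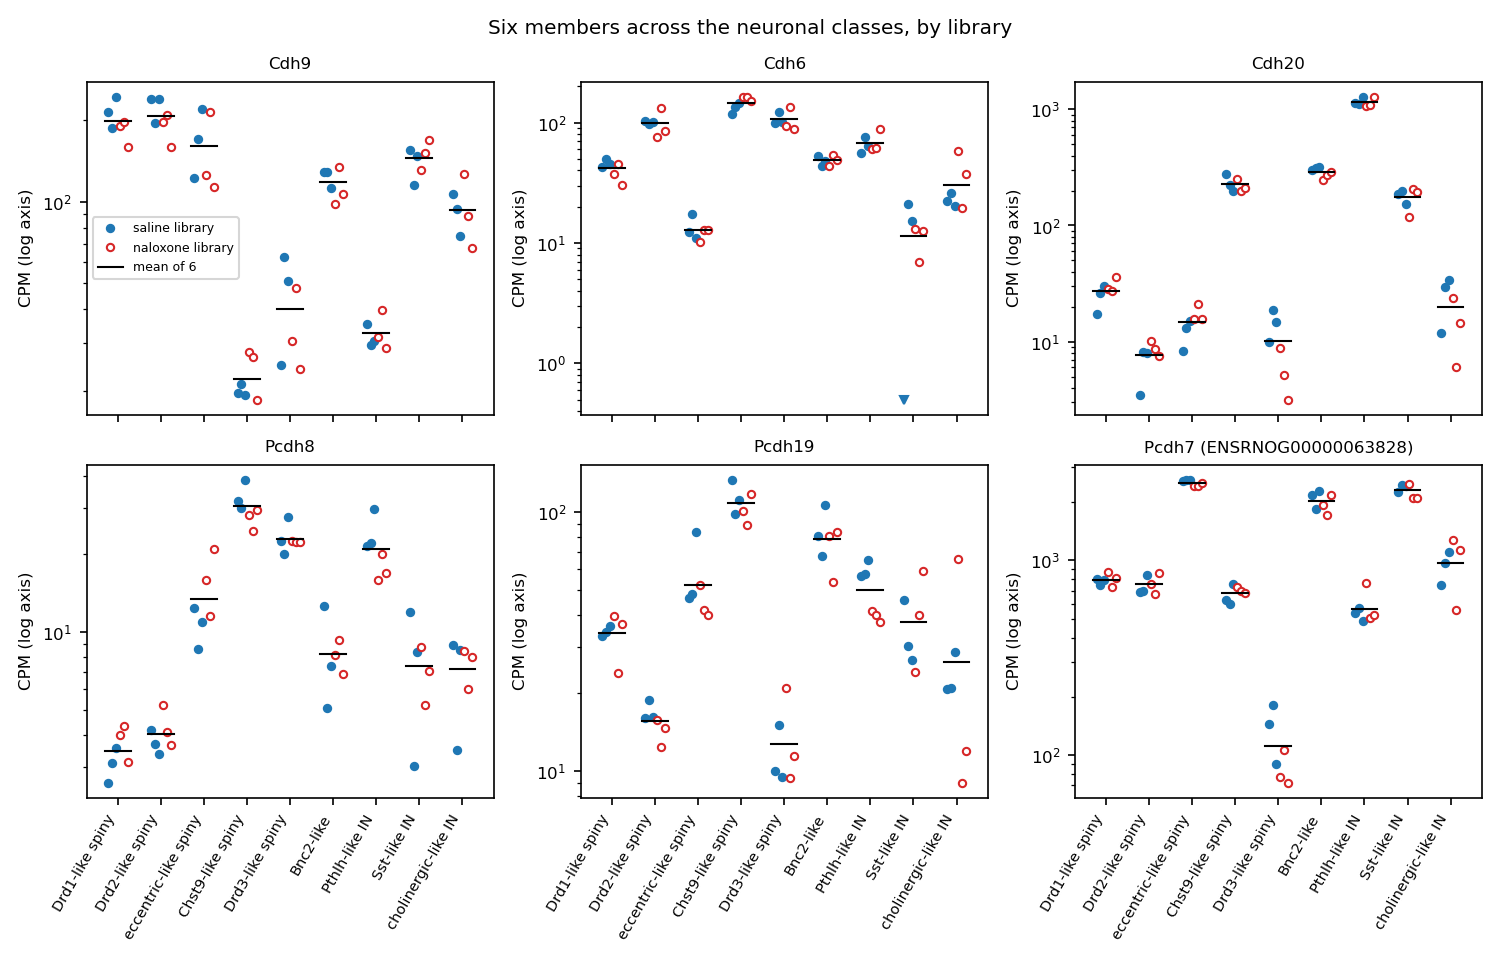
CPM (log axes) of Cdh9, Cdh6, Cdh20, Pcdh8, Pcdh19 and Pcdh7 in the 9 neuronal classes, with 1 point per library (filled for saline, open for naloxone) and the mean of 6 as a line; the 1 library at 0, for Cdh6 in Sst-like interneurons, is drawn as a triangle at 0.5 CPM. Cdh9 is low in Chst9-like neurons, where Pcdh8 and Pcdh19 are high, and Pcdh7 is high in eccentric-like neurons.

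The Drd1-like and Drd2-like classes were mixtures of clusters, which are described here without a test because cluster boundaries were drawn in the same nuclei. In the Drd1-like class, clusters led by Strip2 (3580 nuclei), Nexn (2772) and Ryr1 (1863) had Pcdh15 at 721 ± 80.3, 109 ± 14.0 and 518 ± 46.9 CPM. Cdh12 ran the other way over the first pair, at 156 ± 25.8, 334 ± 34.1 and 520 ± 41.8 CPM. Cdh9 had 268 ± 34.6, 160 ± 21.5 and 92.3 ± 12.9 CPM, and no libraries of these clusters overlapped for these 3 genes. Cdh8 was highest in the Nexn-led cluster at 911 ± 41.4 CPM and lowest in the Ryr1-led one at 315 ± 21.8 CPM, and Pcdh7 was highest in the Ryr1-led cluster at 1548 ± 113 CPM. In the Drd2-like class, a cluster of 441 nuclei differed from the main one of 4800 nuclei in Pcdh7 (2501 ± 512 against 594 ± 36.1 CPM), Cdh11 (574 ± 87.8 against 198 ± 10.3 CPM) and Cdh4 (136 ± 26.9 against 406 ± 42.0 CPM). These spreads within a class exceeded the differences between the Drd1-like and Drd2-like means for the same genes, which were chosen after their values were seen. The 3 members called between the classes differed less between the Drd2-like clusters than between the class means. In the main cluster and that of 441 nuclei, Cdh6 had 102 ± 19.2 and 60.8 ± 22.4 CPM. Cdh20 had 7.87 ± 2.30 and 4.91 ± 4.13 CPM, and Pcdh19 16.2 ± 2.26 and 9.18 ± 3.12 CPM.

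**Figure D3:**
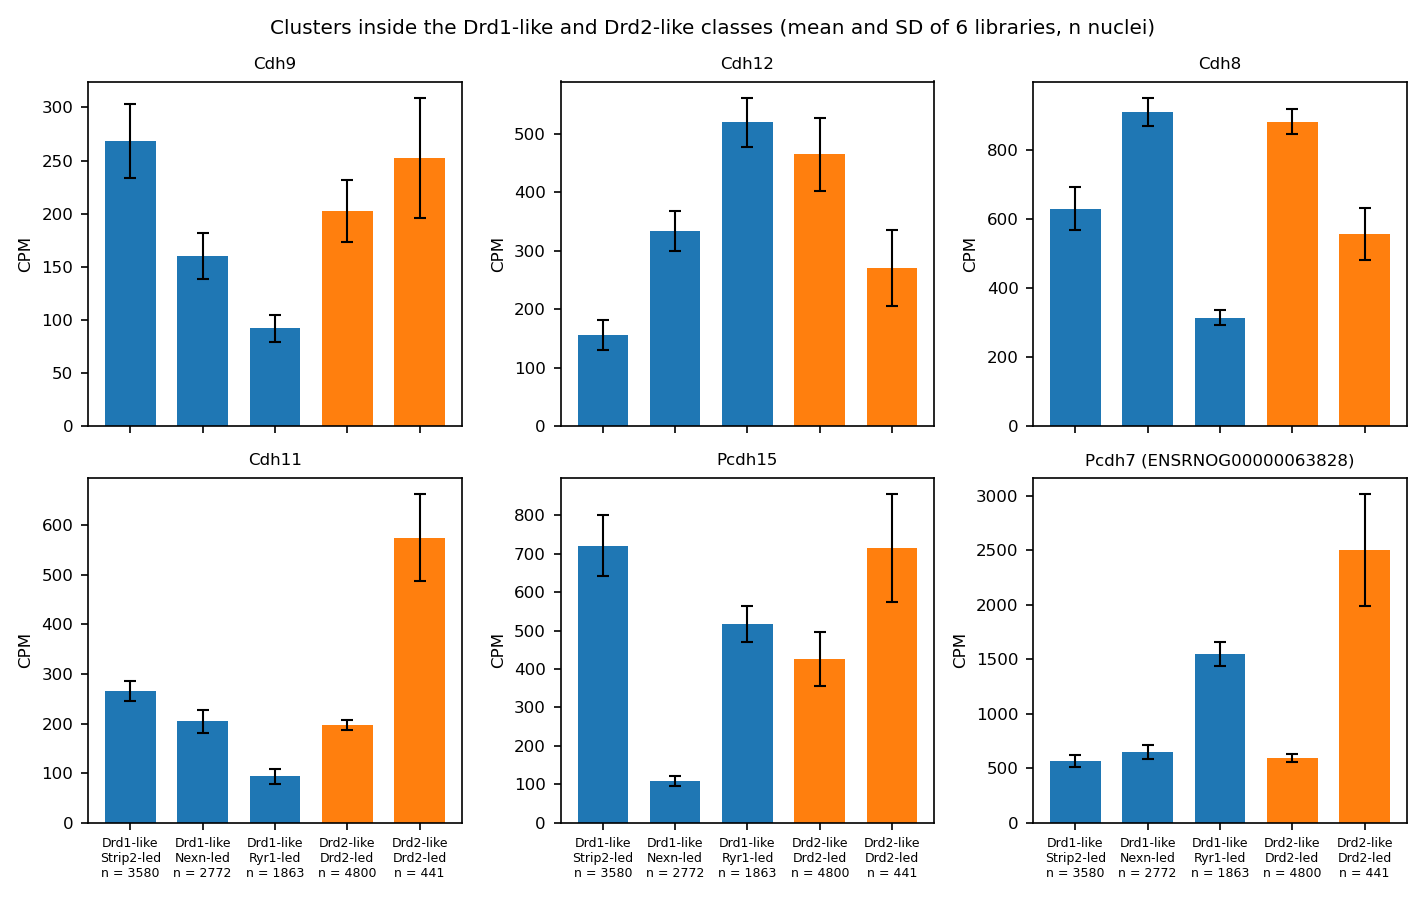
CPM of Cdh9, Cdh12, Cdh8, Cdh11, Pcdh15 and Pcdh7 in the 3 Drd1-like and 2 Drd2-like clusters, as bars for the mean and error bars for the SD of 6 libraries. Pcdh15 and Cdh12 differ among the Drd1-like clusters, and Pcdh7 and Cdh11 are highest in the Drd2-like cluster of 441 nuclei.

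Sst-like and Pthlh-like interneurons differed in 11 of 26 tested members (42.3%), where 8.36% of all genes were called. Higher in the Sst-like class were 7 (4.14% of all genes), Pcdh18, Cdh4, Cdh9, Pcdh11x, Pcdh7, Cdh11 and Cdh18. Cdh4 had 1339 ± 169 against 257 ± 15.2 CPM (log2 difference 2.37 ± 0.08, edgeR adjusted p = 4.03e-18), Pcdh18 37.8 ± 13.8 against 6.26 ± 1.89 CPM (2.58 ± 0.27, adjusted p = 1.83e-08) and Cdh9 145 ± 18.9 against 32.7 ± 4.20 CPM (2.15 ± 0.12, adjusted p = 1.24e-13). Lower were 4 (4.22% of all genes), Cdh20, Cdh6, Pcdh8 and Cdh12. Cdh20 had 176 ± 33.9 against 1156 ± 100 CPM (-2.71 ± 0.09, adjusted p = 5.64e-18) and Cdh6 11.5 ± 7.28 against 67.6 ± 12.4 CPM (-2.49 ± 0.23, adjusted p = 1.63e-09). The libraries of the classes did not overlap for any of the 11 genes. Being picked by p and size, the genes gain no support from this. When single nuclei were assigned by their own marker UMIs in place of clusters, Cdh6 turned to a log2 difference of 0.46, and 7 of 29 members were called (6.94% of all genes).

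Along the oligodendrocyte lineage, 20 of 30 tested members differed between precursor-like and oligodendrocyte-like nuclei (66.7%; 32% of all genes), and 19 of the 20 were higher in the precursors (63.3% of members; 19% of all genes). The median log2 difference was 1.58 for members and -0.05 for all genes. Pcdh15 was higher by 8.48 ± 0.10 on the log2 scale, Cdh3 by 6.38 ± 0.32 and Cdh10 by 5.63 ± 0.14 (edgeR adjusted p = 4.84e-24, 5.91e-14 and 1.89e-19). Cdh18, Pcdh11x, Cdh13, Cdh4 and Pcdh7 were each higher by between 3.31 and 4.95 on the log2 scale. All 3 tested type I cadherins, 3 of 5 delta-2 and 4 of 4 tested clustered genes were higher in precursors. Cdh19 alone was called lower, at 33.9 ± 6.04 against 374 ± 28.8 CPM (-3.36 ± 0.09, adjusted p = 1.23e-18). Committed precursor-like nuclei, which were not part of a test, had 31.9 ± 9.13 CPM of Cdh19, near the precursors, 1104 ± 332 CPM of Pcdh15, between both classes, and the highest Cdh20, Pcdh7 and Pcdh17 of all classes.

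Within the oligodendrocyte-like class, 1 small cluster led by Opalin (268 nuclei) had 2373 ± 777 CPM of Pcdh7, while the clusters led by C1h10orf90, Gpd1 and Cyp2j10 had between 34.5 and 94.1 CPM on average. Its Cdh19 level was 297 ± 54.1 CPM, and those of the other clusters overlapped it.

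Astrocyte-like nuclei differed from precursor-like ones in 19 of 29 tested members (65.5%; 27% of all genes). Higher in the astrocyte-like class were 3 (10.3% of members; 13.5% of all genes), Cdh24, Cdh4 and Cdh22, by 1.51 ± 0.20, 1.48 ± 0.08 and 1.39 ± 0.12 on the log2 scale (edgeR adjusted p = 1.01e-07, 6.27e-16 and 6.93e-11). The other 16 were lower (55.2% of members; 13.5% of all genes), led by Pcdh15 (log2 difference -9.28 ± 0.09), Cdh3 (-6.96 ± 0.33) and Cdh13 (-4.38 ± 0.10). Cdh2, Cdh10, Cdh20, Pcdh7 and Pcdhgc3 differed by less than the required size. Inside the astrocyte-like class, clusters led by Slc1a2 (3316 nuclei), Aqp9 (1306) and Smoc2 (470) had Cdh4 at 567 ± 44.5, 46.1 ± 23.0 and 793 ± 130 CPM, with no overlap between libraries of the Aqp9-led cluster and the others. Pcdh7 was at 196 ± 73.4 CPM in the Smoc2-led cluster against 1828 ± 128 and 2107 ± 129 CPM, and Cdh20 was highest in the Aqp9-led cluster, at 2056 ± 216 CPM.

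The intracellular partners were followed with a list of 18 catenins and associated proteins, of which 17 are in the matrices. None of the 17 tested passed between Drd1-like and Drd2-like neurons, where 2.8% of all genes did. Against the Drd1-like class, Vcl (vinculin, which anchors catenins to actin) was higher in the Chst9-like class, at 145 ± 14.9 against 47.9 ± 2.62 CPM, and in the eccentric-like class, at 215 ± 12.6 CPM, while Ctnnd2 and Ctnna3 were lower in the Chst9-like class. Between precursors and oligodendrocytes 3 were higher (Plekha7, Ctnnd2 and Ctnna2) and 4 lower (Jup, Ctnna1, Ctnna3 and Pkp4), so that 7 of 17 were called where 32% of all genes were. Ctnna3, an alpha catenin, was at 221 ± 13.2 against 3852 ± 236 CPM. Between astrocyte-like and precursor-like nuclei 4 were higher and 4 lower, 8 of 17, against 27% of all genes.

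Among 19 genes of the wider cadherin superfamily, 1 was called between Drd1-like and Drd2-like neurons, where 2.8% of all genes were. It was Clstn2 (a calsyntenin of the postsynaptic membrane), at 56.4 ± 7.50 against 14.3 ± 4.45 CPM, and Chst9-like neurons had 356 ± 31.9 CPM. Dchs1 and Fat4, a ligand and receptor pair, were both called higher in Chst9-like than in Drd1-like neurons, and Fat3 lower. Of all genes, 5.37% were called higher and 6.88% lower there. Of 11 regulators of clustered protocadherin choice, such as Ctcf and cohesin subunits, 10 were tested. The only call in the 6 class comparisons was Smc1a, lower in precursors than in oligodendrocytes. In these comparisons between 2.8% and 32% of all genes were called, with 32% in that of precursors and oligodendrocytes.

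The number of different unclustered members seen per nucleus was counted after thinning each nucleus to 2000 UMIs, over 35 symbols. Precursor-like nuclei had 9.93 ± 0.27 (SD, n = 6 libraries), the most of 13 classes with enough nuclei. Sst-like interneurons (9.19 ± 0.27) and Bnc2-like neurons (8.37 ± 0.23) followed. The Drd2-like, Drd1-like and Drd3-like spiny classes had 6.92 ± 0.21, 6.47 ± 0.17 and 4.54 ± 0.14, and oligodendrocyte-like nuclei had 4.03 ± 0.07. Nuclei below 2000 UMIs were left out, which was 67.5% of oligodendrocyte-like, 38.0% of astrocyte-like and 0.23% of Drd1-like nuclei. A member counts once per nucleus. Whether it is seen at 2000 UMIs also depends on its level, so the number does not separate breadth from level.

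**Figure D4:**
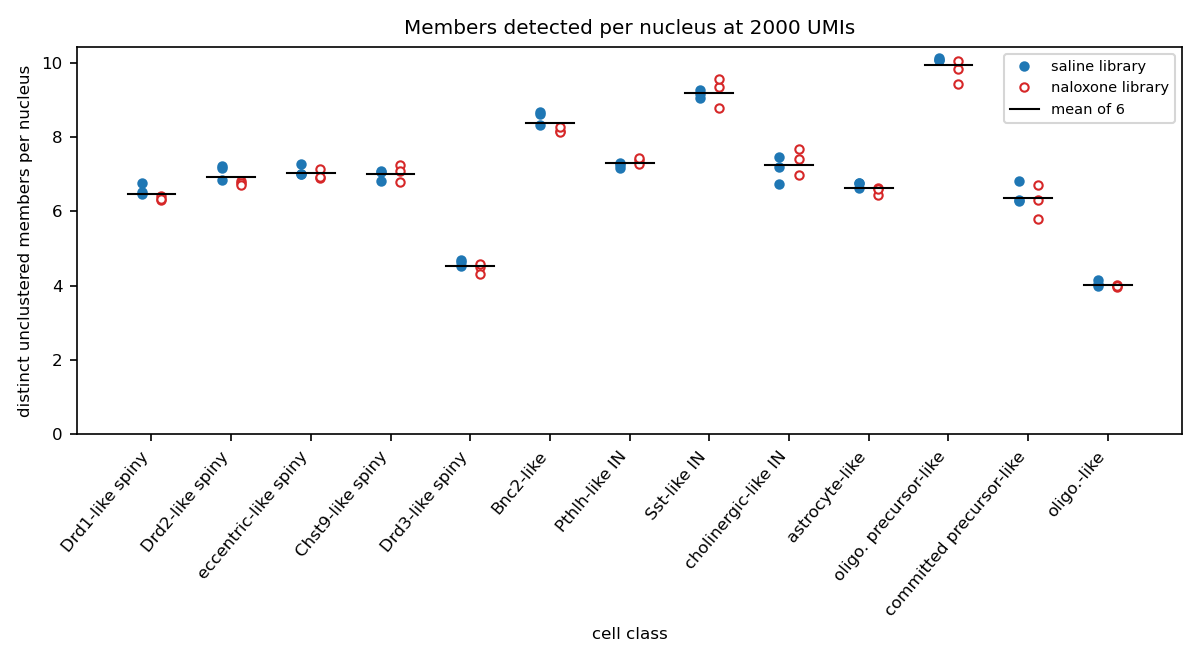
Number of different unclustered members with a UMI per nucleus at 2000 UMIs in 13 classes, with 1 point per library (filled for saline, open for naloxone) and the mean of 6 as a line. Precursor-like nuclei sit highest near 9.93 and oligodendrocyte-like nuclei lowest near 4.03.

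Few members were called after naloxone. The saline and naloxone libraries were compared in each of 15 classes with at least 20 nuclei in every library, by edgeR's quasi-likelihood test at an adjusted p under 0.05. Of 385 pairs of a member and a class, 2 were called (0.519%), against 0.267% of all 135691 pairs. Unadjusted p was under 0.05 in 50 of the 385 pairs (13.0%) and in 9.32% of all pairs. The tests covered 46 members, and 9 were too low in every class.

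Pcdh11x was higher after naloxone in Pthlh-like interneurons, the one member of 25 tested there that was called (0.0329% of all genes). Saline replicates 1 to 3 had 396, 429 and 390 CPM, and naloxone replicates 4 to 6 had 904, 727 and 513 CPM. All naloxone libraries were above all saline libraries, and they were spread widely. The means were 405 ± 21.1 and 715 ± 196 CPM (log2 change 0.82 ± 0.14 SE, adjusted p = 0.0227). UMIs of the gene were found in 38.5 ± 4.62% of saline and 43.0 ± 1.82% of naloxone nuclei, and nuclei with at least 10 of its UMIs made up 9.06 ± 2.26% and 13.9 ± 3.76%, both with overlap. For comparison, 3.39 ± 0.67% of nuclei in the Ikzf1-led cluster held a UMI, at a median depth of 1267 UMIs against 6813. Among the class markers Kit was lower after naloxone without overlap (217 ± 15.8 against 186 ± 6.23 CPM), whereas Pthlh, Lhx6 and Crtac1 overlapped. The summed precursor markers in these nuclei were 165 ± 28.8 against 116 ± 2.67 CPM, also without overlap. Their part in the result was not tested. The log2 change was positive in 10 of the 14 classes where Pcdh11x was tested. The classes come from the same 6 libraries, so they are not separate support, and no share over all genes is given. The call was lost without replicate 1, 2, 3 or 4 (adjusted p = 0.251, 0.195, 0.130 and 0.0900), when called doublets were kept (0.110) and with nuclei assigned by their own markers (log2 change 0.26, adjusted p = 0.578).

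Pcdh1 was lower after naloxone in astrocyte-like nuclei, the one member called of 32 tested (3.12%; 0.711% of all genes). Saline replicates had 35.4, 35.8 and 38.8 CPM and naloxone replicates 20.6, 19.6 and 20.3 CPM, with no overlap. The means were 36.7 ± 1.88 and 20.1 ± 0.52 CPM (log2 change -0.83 ± 0.17, adjusted p = 0.0412). This rests on 378 UMIs, and 8.77 ± 2.32% against 5.26 ± 1.62% of nuclei held one, with overlap, next to 1.84 ± 0.84% in the Ikzf1-led cluster at a median of 1267 against 2351 UMIs. Pcdh1 was lower in each astrocyte-like cluster, at 37.2 against 21.8 CPM in the Slc1a2-led, 37.1 against 19.5 CPM in the Aqp9-led and 30.2 against 4.42 CPM in the Smoc2-led one, and in each the libraries did not overlap. The clusters divide the same nuclei and UMIs, so they give no separate support. The Smoc2-led cluster has only 470 nuclei, and its values rest on few UMIs. The make-up of the class also moved, with the Aqp9-led share at 21.2 ± 5.52% against 32.0 ± 1.46%. The astrocyte marker Slc1a3 was higher after naloxone, at 1810 against 2386 CPM without overlap, while the 5 other astrocyte markers overlapped. The part of these shifts was not tested. The log2 change of Pcdh1 was negative in 11 of 12 classes tested. These classes too come from the same 6 libraries, so the count gives no separate support, and no share over all genes is given. Its call was lost with DESeq2 (adjusted p = 0.0562), with nuclei assigned by their own markers (0.0725) and without any single replicate (0.0690 to 0.158), so it depends on all 6 libraries.

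**Figure D5:**
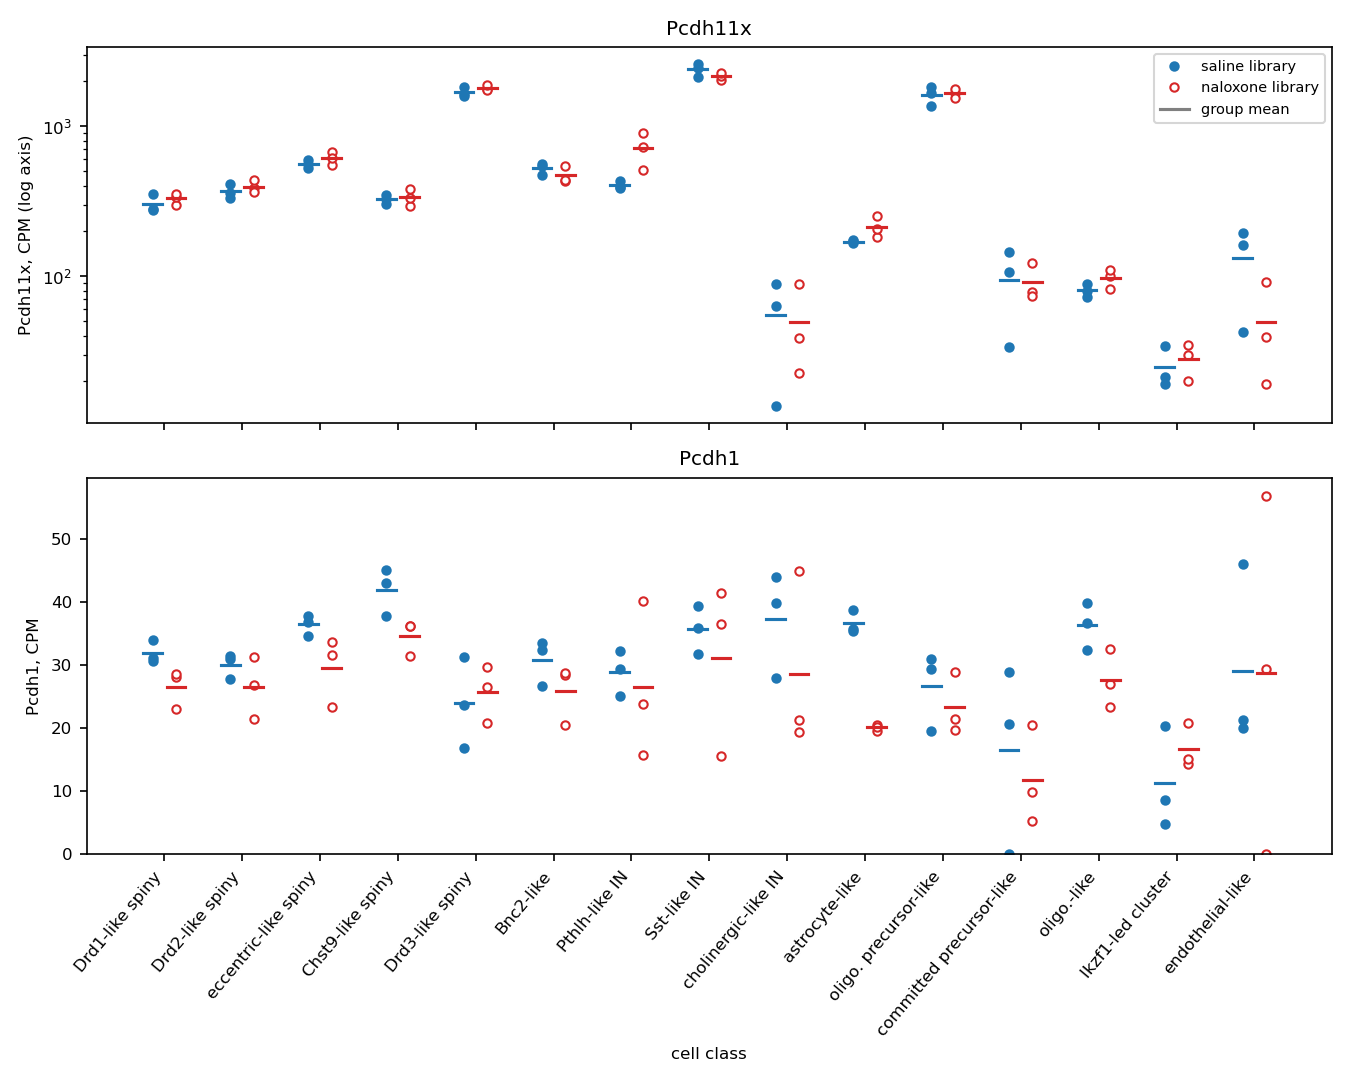
CPM of Pcdh11x (top, log axis) and Pcdh1 (bottom, linear axis) in 15 classes, with 1 point per library (filled for saline, open for naloxone) and each group's mean as a line. In Pthlh-like interneurons the naloxone points for Pcdh11x (513 to 904 CPM) lie above the saline points (390 to 429 CPM), and in astrocyte-like nuclei those for Pcdh1 (19.6 to 20.6 CPM) lie below (35.4 to 38.8 CPM).

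No member was called in the other 13 classes. In spiny neurons the edgeR counts were 0 of 43 tested members in the Drd1-like class (4 at an unadjusted p under 0.05; 0.212% of all genes called), 0 of 35 in the Drd2-like (3; 0.661%), 0 of 29 in the Chst9-like (3; 0.07%), 0 of 28 in the eccentric-like (5; 0.0675%) and 0 of 25 in the Drd3-like class (4; 0%). In the other neurons they were 0 of 23 in the cholinergic-like (2; 0%), 0 of 23 in the Sst-like (2; 0%) and 0 of 30 in the Bnc2-like class (4; 0.116%). In glia and vessels they were 0 of 29 in the oligodendrocyte-like (3; 0.834%), 0 of 32 in the precursor-like (3; 0.277%), 0 of 15 in the committed precursor-like (1; 0%), 0 of 7 in the endothelial-like (1; 0%) and 0 of 9 in the Ikzf1-led nuclei (2; 0.29%). Over all nuclei together, 0 of 50 tested members passed (3 unadjusted; 0.0404% of all genes). With DESeq2, Pcdh11x in Pthlh-like interneurons was the single pair called, and 0 members were called over all nuclei.

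The member with the lowest unadjusted p in each class is given as a value. Because it was picked for its p, an absence of overlap between its groups adds no support. In Drd1-like neurons it was Cdh11, at 237, 209 and 233 CPM after saline and 186, 193 and 204 CPM after naloxone (log2 change -0.22 ± 0.08, edgeR adjusted p = 0.240). These groups did not overlap. In Drd2-like neurons it was Cdh9, at 240, 195 and 240 against 197, 210 and 159 CPM (-0.24 ± 0.10, adjusted p = 0.324), with overlap. In Chst9-like neurons it was Cdh6, at 118, 135 and 145 against 164, 164 and 152 CPM (0.27 ± 0.08, adjusted p = 0.283), without overlap. In Drd3-like neurons Cdh18 was at 46.2, 43.8 and 52.8 against 24.1, 33.4 and 28.5 CPM (-0.73 ± 0.20, adjusted p = 0.324). Bnc2-like neurons had Cdh7 at 157, 152 and 201 against 138, 130 and 111 CPM (-0.43 ± 0.12, adjusted p = 0.229), and oligodendrocyte-like nuclei had Cdh13 at 93.3, 63.5 and 67.9 against 52.3, 56.1 and 47.8 CPM (-0.53 ± 0.15, adjusted p = 0.177). For these genes too the groups did not overlap.

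In the remaining 7 classes the adjusted p of that member was 0.304 or more. Cdh10 in Sst-like interneurons was at 328, 258 and 293 CPM after saline and 349, 368 and 421 CPM after naloxone (log2 change 0.40 ± 0.14, edgeR adjusted p = 0.560), without overlap. Pcdha2 in the Ikzf1-led cluster was at 57.5, 71.4 and 32.1 against 26.9, 23.0 and 8.36 CPM (-1.50 ± 0.46, adjusted p = 0.304), also without overlap. The groups overlapped for the other 5. Their log2 changes were 0.37 ± 0.13 for Cdh7 in eccentric-like and 0.43 ± 0.19 for Cdh11 in cholinergic-like neurons, -0.29 ± 0.12 for Cdh11 in precursor-like nuclei, 0.54 ± 0.21 for Cdh13 in committed precursor-like and 0.74 ± 0.29 for Pcdh9 in endothelial-like nuclei. The changes of these lowest-p members thus had either sign across classes, and Cdh11 was lower in Drd1-like and precursor-like nuclei and higher in cholinergic-like ones on average.

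Whether naloxone acted differently on the Drd2-like and Drd1-like classes was tested as the treatment by class term. It called 0 of 41 members with edgeR (3 at an unadjusted p under 0.05; 1.54% of all genes called). Cdh6 had the lowest p, with a difference of log2 changes of 0.28 ± 0.10 (adjusted p = 0.242). That term was called without replicate 4 (adjusted p = 0.00564) and with no filter on low counts (adjusted p = 0.0188). None of the catenins, superfamily genes and regulators was called for naloxone in any class, where 0.267% of all pairs of a gene and a class were.

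The mean number of different unclustered members per nucleus was lower after naloxone in 9 of 13 classes and higher in the Chst9-like, cholinergic-like, Sst-like and Pthlh-like classes. In 4 of the 9 the saline and naloxone libraries did not overlap. It was 6.60 ± 0.15 against 6.35 ± 0.06 in Drd1-like, 7.07 ± 0.20 against 6.77 ± 0.05 in Drd2-like, 8.55 ± 0.18 against 8.20 ± 0.06 in Bnc2-like and 10.1 ± 0.02 against 9.77 ± 0.32 in precursor-like nuclei (saline against naloxone). For these 4 classes p was 0.1 in the exact two-sided permutation test, the smallest that 3 against 3 libraries allow, and 0.325 after Benjamini-Hochberg adjustment over 13 classes. Without thinning, where depth also counts, the permutation p was 0.7 to 0.8 in these 4 classes. The classes share the same 6 libraries. No such number over all genes is given, so a drop particular to the members cannot be told.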

How the data were processed

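Nuclei of 6 libraries were profiled with 10x GEM-X 3' v4 chemistry. The deposited matrices hold whole-number UMI counts per gene and barcode, made by the authors with Cell Ranger 9.0.1 on build mRatBN7.2, per the submitters' processing notes, which also name Seurat 5.2.1 and R 4.4.0. The annotation release and the intron setting are not given in the sources used here. The labels state 44592 nuclei, while the matrices hold 64260 barcodes.

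A barcode needed 500 or more genes, with mitochondrial UMIs at 5% or less, which 61609 met, and 2762 were removed as doublets, called from simulated doublets at 0.4% per 1000 nuclei. Whether doublets had been removed before deposit is not stated. Clustering used scanpy 1.11.5 and Leiden at resolution 1 on 3000 variable genes, without the cadherin and protocadherin genes and their partner lists. Clusters were named from marker lists. Of the 53 clusters, 11 (6772 nuclei) stayed unnamed and 17 (6936 nuclei) were mixed, and these entered only the comparison over all nuclei. Class levels differ between clusters built from other genes of the same nuclei.

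UMI counts were summed per library and class and tested with edgeR 4.0.16 (R 4.3.3; TMM scaling, quasi-likelihood F-test, Benjamini-Hochberg adjustment over all genes). Naloxone was tested in classes with at least 20 nuclei in each of the 6 libraries, and classes were compared with library as a block. DESeq2 1.42.0 was an alternative, as were other scaling, filters, resolution, gating by single-nucleus markers and leaving out each replicate. The procedure was tested on simulated data. Of genes given a log2 naloxone change of 1 in size, 84% were recovered in the Chst9-like class, the most of any class. In cholinergic-like, committed precursor-like, Ikzf1-led and endothelial-like nuclei 50%, 49%, 44.5% and 7.5% were recovered, so changes of that size can be missed there. Whether libraries of a group come from separate sets of rats is known only from the labels' pooling, and p-values measure the spread between these libraries. Levels rest on 55739350 to 76272798 UMIs per library.

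Genes named are those called for naloxone, the member with the lowest p in each class, the 3 members with the highest ratio of a class to the median of the others, type I cadherins and delta protocadherins in their highest and lowest class, and the 3 largest called differences each way between classes. Some further members are named for completeness, chosen after their values were seen. The members, lists and tests were chosen with earlier results of these data known. Gene order and promoters came from RefSeq, assembly GRCr8.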

Additional observations from a re-analysis of the deposited data

How the results depend on the processing

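No paired analysis was possible because the saline and naloxone libraries share no replicate number. Comparisons of classes used the library as a block, and without that block the same numbers of members were called (3, 8, 8, 11, 20 and 19). The 2 naloxone calls within classes became 1 with DESeq2, 8 with no filter on low counts, 1 with called doublets kept and 0 to 2 when single replicates were left out, with 0 without replicate 1, 2, 3 or 4. Over all nuclei the count was 0 under each alternative. With no filter, Cdh13 in oligodendrocyte-like nuclei (edgeR adjusted p = 0.00837) and Cdh7 in Bnc2-like neurons (0.0461) passed. Assigning nuclei by their own markers, with 1111 Drd1-like nuclei, gave 1 call between Drd1-like and Drd2-like, 4 between Chst9-like and Drd1-like, 5 between eccentric-like and Drd1-like and 7 between Sst-like and Pthlh-like nuclei, and reversed Cdh6 in the last to a log2 difference of 0.46. The cause was not tested. The treatment by class term had 1 call with no filter and 0 to 1 when single replicates were left out, with 1 without replicate 4. The number of classes with a higher mean count of members per nucleus after naloxone, 4, became 2 of 16 with nuclei assigned by their own markers and 3 to 4 when single replicates were left out. At Leiden resolution 0.5 the oligodendrocyte-like class lost its name, so its comparison gave no value. Of the single-gene values, 745 kept their direction and side of the threshold, 26 no longer passed, 2 newly passed, 13 moved and 1 reversed. Few nuclei limit the endothelial-like class, and small pools limit mural-like and ependymal-like levels.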

Other observations

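Several clusters that met no marker rule had higher levels of a cadherin than any named class. A cluster of 192 nuclei led by Hs6st3 had Cdh12 at 3351 ± 468 CPM (SD, n = 6 libraries), with libraries between 2917 and 4217 CPM, against 973 ± 134 CPM in Pthlh-like interneurons, the highest named class. The same cluster had Cdh18 at 1734 ± 359 CPM, and its Cdh10 level of 1369 ± 164 CPM overlapped the astrocyte-like class. These 3 genes are neighbours on chromosome 2.

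Cdh8 was at 1523 ± 170 CPM in a cluster of 1043 nuclei led by ENSRNOG00000063531, above every cholinergic-like library. Cdh7 was at 263 ± 19.3 CPM in a cluster of 1665 nuclei led by Nox4, and Cdh2 at 598 ± 32.0 CPM in a cluster of 612 nuclei led by Tafa4, both above every Bnc2-like library. Cdh22 was at 157 ± 22.2 CPM in a cluster of 151 nuclei led by Pde11a, above every astrocyte-like library. Pcdh8 was at 43.5 ± 9.53 CPM in a cluster of 316 nuclei led by Slc17a6, which encodes a vesicular glutamate transporter, and overlapped the Chst9-like class.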
